A study of Mus musculus with 6 samples.

Results

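The genes described here are the transcriptional cofactors YAP (Yap1) and TAZ (Wwtr1), the TEAD factors that carry them to DNA (Tead1, Tead2, Tead3 and Tead4), and a group of their widely used target genes (Ctgf, Cyr61, Ankrd1 and Amotl2). They were found by symbol in the gene tables, and all 10 were present among 18182 genes. They were measured in LLC cells (Lewis lung carcinoma), a lung cancer line from C57BL/6 mice. The cells carried red fluorescent protein in both groups and grew under the skin of wild type C57BL/6 mice, either by themselves (LLC alone) or co-injected with bone marrow-derived mesenchymal stem cells (LLC with BMSCs). Red fluorescent cells were sorted from the primary tumours and sequenced in 3 libraries per group, and the comparison asks how the co-injection changed the cancer cells. The BMSCs came from C57BL/6 mice and were bought from a supplier. Tumour growth was examined in female mice aged 6 weeks, and whether these libraries came from such mice is not given in the sources used here. The labels do not tie the libraries to separate mice, so p-values measure the spread between these libraries, which may be technical.

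Yap1 and Wwtr1 do not bind DNA themselves. They enter the nucleus, bind a TEAD factor and raise transcription of genes for growth, adhesion and the cytoskeleton. The Hippo kinases Stk3 and Stk4 activate Lats1 and Lats2, which phosphorylate the cofactors and keep them in the cytoplasm. Much of the pathway's control therefore lies in the protein and is not seen in messenger RNA. The matricellular proteins Ctgf and Cyr61, the ankyrin-repeat protein Ankrd1 and the angiomotin-like protein Amotl2 are commonly read as its output.

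TEAD factors recognise the letters GGAATG, which read CATTCC on the other strand. The 250 bases before each RefSeq start site (build GRCm38.p6) were searched for these letters on both strands. RefSeq promoters were matched for 7 of the 10 genes, and none was matched for Tead1, Tead4 and Ctgf. The letters were present in at least 1 window of 6 of those 7 genes (none for Tead2). The 7 genes had 10 windows, some of them overlapping. Counted by single window, 12.6% of all 32851 promoter windows of the same length held the letters, so the share of genes and this share have unlike units. The sites of both cofactors and of the matched targets are shown because they are the stretches of these genes that the TEAD letters mark. Each is a run of 30 bases, 5′ to 3′ on the strand of the gene, with the TEAD letters in capitals:
Yap1, chr9:8004720-8004749, minus strand, 141 bases before the start: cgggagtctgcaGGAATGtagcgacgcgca
Wwtr1, chr3:57576029-57576058, minus strand, 136 bases before the start: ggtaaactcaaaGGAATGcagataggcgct
Cyr61, chr3:145650071-145650100, minus strand, 103 bases before the start: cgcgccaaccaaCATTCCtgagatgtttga
Ankrd1, chr19:36120037-36120066, minus strand, 210 bases before the start: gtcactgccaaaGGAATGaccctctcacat
Ankrd1, chr19:36119950-36119979, minus strand, 123 bases before the start: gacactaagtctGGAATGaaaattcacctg
Amotl2, chr9:102717727-102717756, plus strand, 65 bases before the start: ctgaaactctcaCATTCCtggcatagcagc

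Distances count from the first capital to the RefSeq start. The Yap1, Wwtr1 and Cyr61 sites overlapped no exon of these genes in GENCODE M21. The Ankrd1 and Amotl2 sites lay in a 5′ untranslated exon of transcripts that start further upstream. No window of the 7 genes held the AP-1 letters TGANTCA, present in 6.75% of all windows, or a CArG box, the Srf motif, present in 1.47%. A match of letters is a description of the sequence, and binding was not measured in these data.

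The libraries held 33476347 to 46189113 estimated counts of fragments. LLC alone replicate 3 stood apart by transcript length, where the median log2 deviation from all libraries was -0.37 over the longest genes (from 4850 bases) and 0.31 over an equal number of the shortest. The LLC with BMSCs libraries leaned the other way, by 0.10 to 0.18 and by -0.19 to -0.09, so that this trend and the groups cannot be fully told apart. Results are therefore also given with the length trend of each library removed, and without LLC alone replicate 3 where that changes them. LLC alone replicates 1 and 2, and LLC with BMSCs replicates 2 and 3, were far closer than the other pairs but differed by more than sampling noise.

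Ctgf was counted only with BMSCs, and the fitted fold changes of the other 9 genes lay between 0.806 and 1.27. By edgeR's quasi-likelihood test with Benjamini-Hochberg adjustment over 13353 tested genes, Ctgf, Tead2 and Tead3 rose in LLC with BMSCs, Amotl2 fell, and the other 6 genes did not pass an adjusted p of 0.05. All 10 genes passed the filter on low counts, but Ctgf passed it only through LLC with BMSCs and so had to differ, and its call supports nothing further. Calls were common in these data, since 62.9% of all tested genes passed, 31.5% higher and 31.3% lower, so that 4 of 10 is a smaller share than the background. Over the 10 genes the median log2 fold change was 0.06, against 0.01 over all tested genes. The FPKM values (fragments scaled by transcript length and library size, which allow levels of different genes to be compared) of the groups did not overlap for 5 of the 10 genes, against 70.6% of all tested genes. Of these 5, Tead1, Tead2, Tead3 and Ctgf were higher, where 37.0% of tested genes were, and Amotl2 was lower, where 33.7% were. The exact two-sided permutation p was 0.1 for each of these 5 genes, which is the lower limit with 3 libraries per group.

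**Figure D1:**
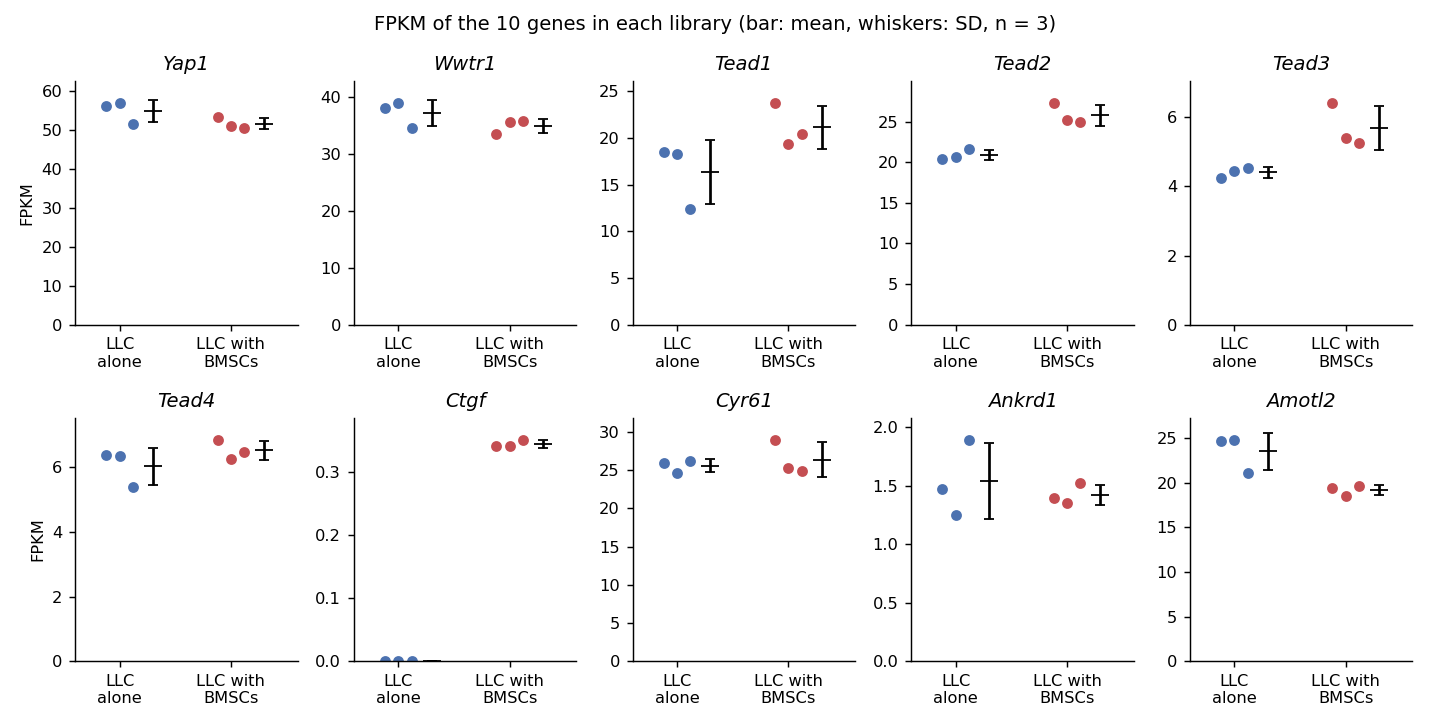
FPKM (vertical axis, linear, from 0) of the 10 genes in each library of LLC alone (blue points) and LLC with BMSCs (red points); the horizontal bar is the mean and the whiskers are the SD of 3 libraries. Ctgf is at 0 in every LLC alone library and at 0.34 to 0.35 with BMSCs, while Yap1, Wwtr1, Tead4, Cyr61 and Ankrd1 overlap between the groups.

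In LLC alone, the order of levels by mean FPKM was Yap1 (54.85), Wwtr1 (37.26), Cyr61 (25.57), Amotl2 (23.49), Tead2 (20.91), Tead1 (16.36), Tead4 (6.04), Tead3 (4.407), Ankrd1 (1.537) and Ctgf (0). Neighbours in this order overlapped in their libraries for Cyr61 with Amotl2 and for Amotl2 with Tead2. In LLC with BMSCs, Tead2 at 25.79 stood beside Cyr61 at 26.36, and Tead1 at 21.14 beside Amotl2 at 19.2. In that group the overlapping neighbours were Cyr61 with Tead2, Tead1 with Amotl2, and Tead4 with Tead3. In both groups Yap1 was the most abundant gene of the 10 and Ctgf the least.

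Yap1 (NCBI gene 22601, chr9:7931999-8004596 of GRCm38, minus strand) measured 56.06, 56.89 and 51.6 FPKM in LLC alone replicates 1 to 3. In LLC with BMSCs it measured 53.27, 50.98 and 50.55 FPKM. The highest LLC with BMSCs library lay above the lowest LLC alone library, so the groups overlapped. The difference was -7.19% (95% interval -15.9% to 2.38%; log2 fold change -0.11, SE 0.06, edgeR adjusted p = 0.157). The longer of the annotated Yap1 transcripts, of 4200 bases, carried 24.6% ± 4.06 of Yap1 FPKM in LLC alone and 28.7% ± 3.31 with BMSCs (SD, n = 3). The one of 4152 bases carried the rest. In GENCODE M21, Yap1 shares 116 exonic bases with Gm20416 on the opposite strand, a gene without measured values here. Whether the counting used the strand is not given in the sources used here.

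Wwtr1 (NCBI gene 97064, chr3:57455649-57575910, minus strand) measured 38.17, 38.97 and 34.65 FPKM in LLC alone. The values with BMSCs were 33.53, 35.65 and 35.79 FPKM. LLC alone replicate 3 lay inside the range of the other group. The difference was -7.42% (95% interval -16.5% to 2.60%; log2 fold change -0.11, SE 0.06, edgeR adjusted p = 0.162). The FPKM ratio of Wwtr1 to Yap1 within a library was 0.679 ± 0.00691 in LLC alone and 0.679 ± 0.0431 with BMSCs (SD, n = 3; exact permutation test, two-sided, p = 1).

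Both cofactors changed call with the length trend. With it removed, Yap1 had a log2 fold change of -0.21 (edgeR adjusted p = 0.000711) and Wwtr1 one of -0.27 (edgeR adjusted p = 0.000671), which made 3 of the 10 genes lower, against a background of 34.2% of tested genes. Without LLC alone replicate 3, the values were -0.14 (edgeR adjusted p = 0.0192) and -0.15 (edgeR adjusted p = 0.0171). Scaling FPKM to TPM raised the log2 ratios of all tested genes by a median of 0.156, and on that scale those of Yap1 and Wwtr1 turned to 0.07 and 0.06, below the median of all genes at 0.178.

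**Figure D2:**
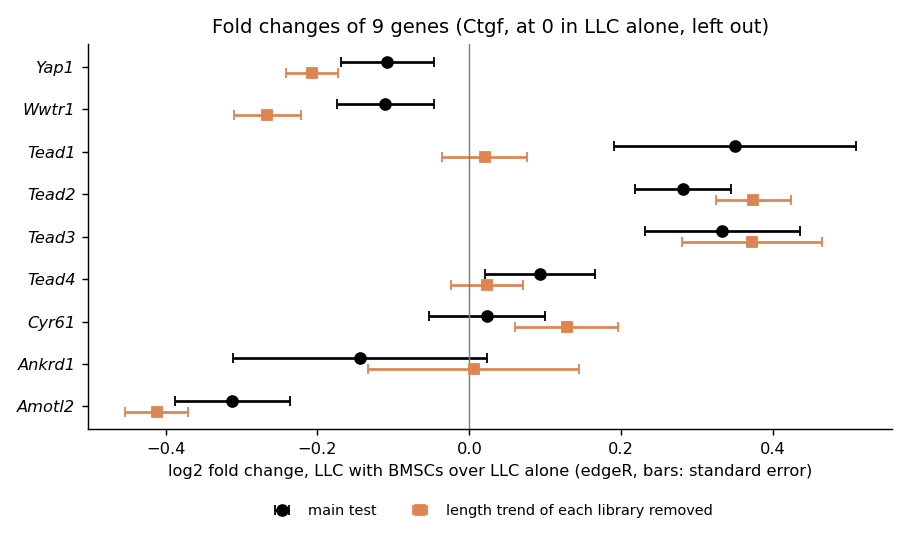
Log2 fold change of LLC with BMSCs over LLC alone (horizontal axis) with its standard error for 9 of the 10 genes, by edgeR (black circles) and with the length trend of each library removed (orange squares); Ctgf is left out because it has no counts in LLC alone. Tead1 moves from 0.35 to 0.02, Yap1 from -0.11 to -0.21 and Wwtr1 from -0.11 to -0.27, while Tead2, Tead3 and Amotl2 keep their direction.

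Among the TEAD genes, Tead2 and Tead3 rose by about the same factor. Tead2 (NCBI gene 21677, chr7:45215753-45233644, plus strand), which is prominent in early embryos, measured 20.42, 20.66 and 21.65 FPKM in LLC alone. With BMSCs it measured 27.27, 25.14 and 24.95 FPKM, and every one of these libraries lay above every LLC alone library. The difference was 21.5% (95% interval 9.80% to 34.5%; log2 fold change 0.28, SE 0.06, edgeR adjusted p = 0.00542), and 0.37 with the length trend removed (edgeR adjusted p = 0.000183). Tead2 shares 13 exonic bases with Cd37 on the opposite strand, and whether the counting used the strand is not given in the sources used here.

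Tead3 (NCBI gene 21678, chr17:28331671-28350817, minus strand) measured 4.24, 4.45 and 4.53 FPKM in LLC alone. In LLC with BMSCs the values were 6.41, 5.4 and 5.27 FPKM, with LLC with BMSCs replicate 1 the highest and no overlap. The difference was 25.9% (95% interval 6.83% to 48.4%; log2 fold change 0.33, SE 0.10, edgeR adjusted p = 0.0222). Without LLC alone replicate 1 the adjusted p was 0.0685, and without LLC alone replicate 2 it was 0.0501. The 2 main annotated transcripts of Tead3 shared its FPKM unevenly between replicates, the one of 2452 bases at 14.6% to 42.7% in LLC alone and at 23.2% to 67.3% with BMSCs.

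Tead1 (NCBI gene 21676, chr7:112679318-112906807, plus strand), the TEAD gene with the longest transcripts at a mean of 9628 bases, measured 18.47, 18.25 and 12.37 FPKM in LLC alone. With BMSCs it measured 23.72, 19.31 and 20.39 FPKM. The groups did not overlap, and LLC alone replicate 3 was the lowest by far. The difference was 27.5% (95% interval -1.30% to 64.7%; log2 fold change 0.35, SE 0.16, edgeR adjusted p = 0.0873). With the length trend removed the log2 fold change was 0.02 (edgeR adjusted p = 0.761), and without LLC alone replicate 3 it was 0.19 (edgeR adjusted p = 0.074). DESeq2 gave the same 0.35 with an adjusted p of 0.0423.

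Tead4 (NCBI gene 21679, chr6:128224288-128300823, minus strand), known from the trophectoderm of the early embryo, measured 6.39, 6.35 and 5.38 FPKM in LLC alone. Its values with BMSCs were 6.85, 6.27 and 6.48 FPKM, and the groups overlapped. The difference was 6.63% (95% interval -5.04% to 19.7%; log2 fold change 0.09, SE 0.07, edgeR adjusted p = 0.29). Most of its FPKM, 69.9% ± 6.77 in LLC alone and 69.3% ± 1.28 with BMSCs (SD, n = 3), was assigned to a transcript that the authors' pipeline assembled.

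The FPKM of the 4 TEAD genes summed to 49.5, 49.7 and 43.9 in LLC alone and to 64.2, 56.1 and 57.1 with BMSCs. The sums of the groups did not overlap, at 47.7 ± 3.28 and 59.2 ± 4.44 (SD, n = 3; exact permutation test, two-sided, p = 0.1). The shares of Tead1, Tead2 and Tead3 in the sum overlapped between the groups over all 6 libraries. Tead2 held 44.0% ± 4.56 of it in LLC alone and 43.6% ± 1.18 with BMSCs, and Tead1 held 34.1% ± 5.12 and 35.7% ± 1.26 (SD, n = 3). The Tead4 share was 12.9%, 12.8% and 12.2% in LLC alone and 10.7%, 11.2% and 11.4% with BMSCs, a difference of -1.58 points with separate ranges (two-sided exact permutation p = 0.1). The other shares rested on LLC alone replicate 3. Without it, Tead2 held 41.2% and 41.6% against 42.4% to 44.8%, and Tead3 8.56% and 8.95% against 9.23% to 9.98%, with no overlap, and the differences were -1.325 points for Tead1 and 2.249 points for Tead2, in place of 1.62 and -0.379.

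**Figure D3:**
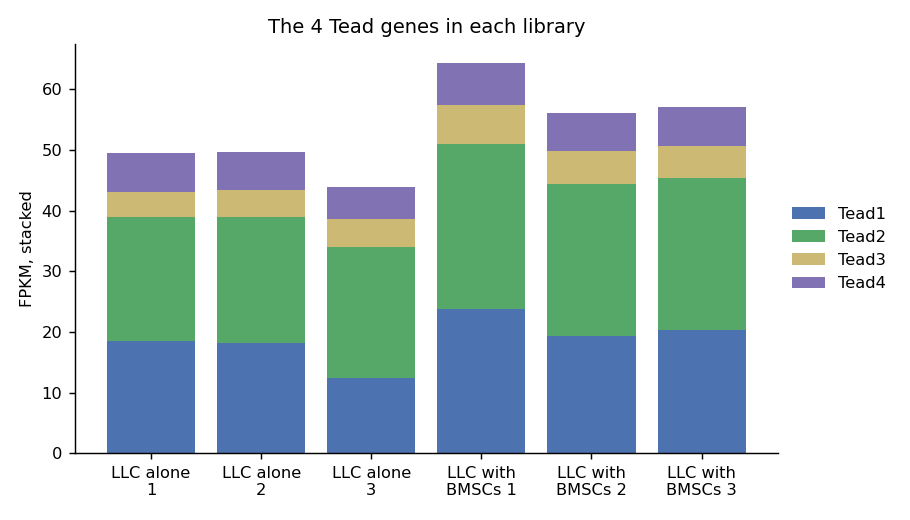
FPKM of Tead1, Tead2, Tead3 and Tead4 stacked for each library (vertical axis, linear, from 0). The stacks reach 43.9 to 49.7 in LLC alone and 56.1 to 64.2 with BMSCs, and Tead1 is smallest in LLC alone replicate 3.

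Of the targets, Ctgf rose, Amotl2 fell, and Cyr61 and Ankrd1 did not pass the test. Ctgf (NCBI gene 14219, chr10:24595442-24598683, plus strand), a secreted matricellular protein also called Ccn2, had 0 counts in each LLC alone library. A count of 0 allows up to 3 counts per library, or 0.065 to 0.0896 CPM (counts scaled by library size), for counting error only. With BMSCs it had 36, 35 and 36 counts, or 0.809, 0.794 and 0.821 CPM, and 0.34, 0.34 and 0.35 FPKM. Against the floor of 3 counts per library, Ctgf was at least 10.9-fold higher with BMSCs. Even so it remained the least abundant gene of the 10.

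Other genes were also counted only with BMSCs. Of 945 genes at 0 counts in every LLC alone library, 30 had at least 30 counts in every LLC with BMSCs library, and Ctgf was one of them. The genes whose log2 CPM followed Ctgf most closely over the 6 libraries were Cybb, a subunit of the phagocyte oxidase, Iigp1, an interferon-inducible GTPase, and Oasl2, an interferon-induced gene of the oligoadenylate synthetase family, each with a Pearson r of at least 0.9998. This likeness is little more than the split of the groups, since 572 of 10594 genes had r above 0.99. In GENCODE M21, 665 exonic bases of Ctgf are shared with Gm15270 on the opposite strand, a gene without a row in the tables, and without strand their reads cannot be told apart.

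The summed markers of BMSCs and fibroblasts, and of macrophages, were higher with BMSCs, as Ctgf was. Those of endothelial cells and muscle were not. The summed CPM of 13 markers of BMSCs and fibroblasts was 358 to 426 in LLC alone and 785 to 833 with BMSCs. Most of that sum was Col3a1, a fibrillar collagen (41.18 FPKM in LLC alone, 100 with BMSCs), followed by Eng, a TGF-beta co-receptor (28.73 and 34.85 FPKM). All 9 tested markers were called higher, where 31.5% of all tested genes were. Of these markers, Col1a1, Dcn and Lum passed the filter on low counts only through LLC with BMSCs and so had to differ. Col1a1 and Dcn were picked after their values were seen. Col1a1 had 2, 4 and 4 counts in LLC alone and 586, 499 and 477 with BMSCs, and Dcn had 8, 8 and 8 against 506, 526 and 492. Thy1, Fap and Cxcl12 were at 0 in LLC alone and were not tested. With BMSCs, Thy1 had 0, 2 and 1 counts, Fap 0, 1 and 0, and Cxcl12 12, 7 and 8. Macrophage markers summed to 9.71 to 11.7 CPM and 21 to 21.1 CPM. Of 7 tested markers, 6 were higher and Cd68 was lower (5.55 and 3.033 FPKM), beside 31.5% and 31.3% of all tested genes. Among the higher markers, Adgre1, Itgam, Ptprc and Mrc1 passed the filter only through LLC with BMSCs and so had to differ. Lyz2 was at 3.08 and 4.713 FPKM. Adgre1, C1qa and C1qc were at 0 in LLC alone. With BMSCs, Adgre1 had 60, 79 and 63 counts, C1qa 1, 3 and 3, and C1qc 0, 2 and 2. Endothelial markers summed to 2.99 to 3.94 CPM and 2.45 to 3.19 CPM, and muscle markers to 6.5 to 7.58 CPM and 4.33 to 5.27 CPM. The leading endothelial genes were Esam, which fell from 1.207 to 0.6767 FPKM (edgeR adjusted p = 0.00436), and Pecam1 at 0.17 and 0.1867 FPKM. Among muscle genes, Des fell from 1.877 to 1.147 FPKM (edgeR adjusted p = 0.00557) and Mylpf was at 1.14 and 1.42 FPKM. Of the epithelial markers, Krt8 was abundant (95.3 and 110 FPKM) and Krt18 low (0.08333 and 0.6533 FPKM). Krt18 passed the filter on low counts only through LLC with BMSCs. Cdh1 and Epcam were near 0 in both groups, and Krt19 had 0 counts in LLC alone and 1, 3 and 2 with BMSCs. In sorted cells measured in bulk, a larger number of cells of a type and more RNA per cell cannot be told apart, and the part of other cells in the Ctgf counts was not tested.

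**Figure D4:**
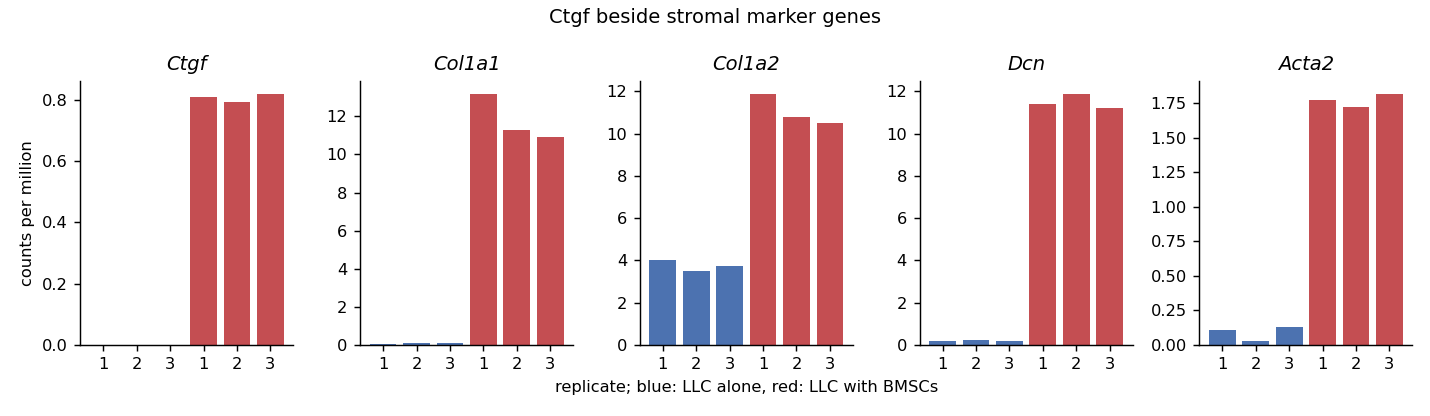
CPM (vertical axes, linear, from 0, one scale per gene) of Ctgf and of the stromal genes Col1a1, Col1a2, Dcn and Acta2 in replicates 1 to 3 of LLC alone (blue) and of LLC with BMSCs (red). The stromal genes shown are a selection of genes that rose. Other markers, among them Lum and the nearly absent Thy1 and Fap, are not shown. Ctgf is at 0 in LLC alone, and each of the 5 genes is higher in every LLC with BMSCs library than in any LLC alone library.

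Cyr61 (NCBI gene 16007, chr3:145646976-145649981, minus strand), the relative of Ctgf also called Ccn1, was abundant in both groups. It measured 25.9, 24.6 and 26.22 FPKM in LLC alone. With BMSCs it measured 28.93, 25.28 and 24.87 FPKM, with LLC with BMSCs replicate 1 above all others and the rest mixed. The difference was 1.59% (95% interval -10.2% to 14.9%; log2 fold change 0.02, SE 0.08, edgeR adjusted p = 0.81), and its sign turned without that library. With the length trend removed the log2 fold change was 0.13 (edgeR adjusted p = 0.121).

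Ankrd1 (NCBI gene 107765, chr19:36111961-36120099, minus strand), a stress-responsive gene best known from heart muscle, was low. It measured 1.47, 1.25 and 1.89 FPKM in LLC alone, from 71 to 148 counts. Co-injected cells gave 1.39, 1.35 and 1.52 FPKM, and the groups overlapped. The difference was -9.52% (95% interval -30.8% to 18.4%; log2 fold change -0.14, SE 0.17, edgeR adjusted p = 0.472), the widest interval on the log2 scale among the 9 genes with counts in both groups. Its sign turned to 0.04 without LLC alone replicate 3 and to 0.01 with the length trend removed.

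Amotl2 (NCBI gene 56332, chr9:102716672-102733418, plus strand), whose protein binds YAP at junctions and holds it outside the nucleus while the gene is itself a target, fell. It measured 24.64, 24.79 and 21.05 FPKM in LLC alone. With BMSCs it measured 19.45, 18.54 and 19.6 FPKM, each below every LLC alone library. Amotl2 fell by 19.4% (95% interval -28.7% to -8.99%; log2 fold change -0.31, SE 0.08, edgeR adjusted p = 0.00794), and the log2 fold change was -0.41 with the length trend removed (edgeR adjusted p = 3.83e-05) and -0.38 without LLC alone replicate 3 (edgeR adjusted p = 0.000106).

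When LLC alone replicates 1 and 2, and LLC with BMSCs replicates 2 and 3, were each summed to 1 sample, Ctgf was the only gene of the 10 that passed. Tead2 then had an edgeR adjusted p of 0.0587, Tead3 one of 0.0657 and Amotl2 one of 0.102, at log2 fold changes of 0.29, 0.37 and -0.27.

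Among the Hippo kinases and scaffolds, more genes were higher than lower with BMSCs. Of 13 genes, all tested, 9 rose and 0 fell (1 fell under upper-quartile scaling), where 31.5% of all tested genes rose and 31.3% fell, and the median log2 fold change was 0.27, against 0.01 over all tested genes. After removal of the length trend, 6 were higher and 2 lower, against 35.6% and 34.2% of all tested genes. Sav1, the scaffold of the Stk3 and Stk4 kinases, measured 58.75, 57.22 and 56.66 FPKM in LLC alone and 93.57, 96.3 and 93.42 with BMSCs. It rose 1.62-fold (log2 fold change 0.69, SE 0.05, edgeR adjusted p = 2.25e-05), with no overlap. Taok2, a kinase that activates the cassette, rose 1.54-fold (log2 fold change 0.62, SE 0.10, edgeR adjusted p = 0.000865), and its log2 fold change was 0.40 with the length trend removed (edgeR adjusted p = 6.46e-05). Stk3 and Lats1, named after their values were seen, rose 1.21-fold and 1.20-fold. With the length trend removed, Lats1, whose transcripts average 7222 bases, had a log2 fold change of -0.001 (edgeR adjusted p = 0.987) and Stk3 one of 0.26 (edgeR adjusted p = 0.000379).

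The Lats cofactor Mob1b rose, by an amount that depended on LLC alone replicate 3. It measured 11.24, 10.88 and 5.92 FPKM in LLC alone and 14.59, 16.32 and 15.97 with BMSCs (log2 fold change 0.73, SE 0.21, edgeR adjusted p = 0.0185), and without LLC alone replicate 3 the log2 fold change was 0.48 (edgeR adjusted p = 9.97e-05). Without LLC with BMSCs replicate 2 or replicate 3, its adjusted p was 0.0512 or 0.0516. Mob1a, the abundant partner of Mob1b, measured 111.65, 113.02 and 68.52 FPKM in LLC alone and 78.35, 80.91 and 79.7 with BMSCs (log2 fold change -0.31, SE 0.17, edgeR adjusted p = 0.144). Without LLC alone replicate 3 its log2 fold change was -0.51 (edgeR adjusted p = 1.22e-05). Map4k4, a kinase that acts on Lats, was at 75.45 and 76.68 FPKM (log2 fold change 0.02, SE 0.09, edgeR adjusted p = 0.863), and at -0.19 with the length trend removed (edgeR adjusted p = 0.00114). Leaving out 1 library at a time gave 5 to 8 kinase genes higher, the lowest without LLC with BMSCs replicate 3, and up to 2 lower, without LLC alone replicate 3.

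The upstream regulators, which pass signals from junctions and cell polarity to the kinases, also held more genes that rose than fell. Of 17 genes, 15 were tested (Fat4 and Wtip had too few counts), and 8 rose, 3 fell and 4 did not pass, beside 31.5% of all tested genes higher and 31.3% lower, at a median log2 fold change of 0.27. Nf2 (merlin), which brings the kinases to the membrane, rose 1.49-fold (log2 fold change 0.57, SE 0.09, edgeR adjusted p = 0.000789). Its partner Frmd6 rose 1.47-fold (log2 fold change 0.55, SE 0.08, edgeR adjusted p = 0.000715).

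The giant cadherin Fat1 measured 4.24, 4.33 and 1.95 FPKM in LLC alone and 8.24, 7.41 and 7.48 with BMSCs, a rise of 2.17-fold (log2 fold change 1.12, SE 0.27, edgeR adjusted p = 0.00709). Its transcripts are the longest of this list but one, at 14706 bases, and the log2 fold change was 0.75 with the length trend removed (edgeR adjusted p = 0.000139). Rassf1, which binds the Stk3 and Stk4 kinases, fell from 92.29 ± 6.059 to 62.9 ± 3.052 FPKM (SD, n = 3; log2 fold change -0.57, SE 0.07, edgeR adjusted p = 0.000274). With the length trend removed, 6 of these genes were lower in place of 3 and 8 higher, against 34.2% and 35.6% of all tested genes. Without LLC with BMSCs replicate 1, or without replicate 2, 5 were higher in place of 8.

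Of the Vgll proteins, which compete with YAP and TAZ for TEAD, Vgll1 and Vgll2 had no row in the tables. Vgll3 had 0 counts in LLC alone and 8, 7 and 3 counts with BMSCs and was not tested. Vgll4 measured 9.29, 8.42 and 6.78 FPKM in LLC alone and 7.21, 6.94 and 6.77 with BMSCs (log2 fold change -0.25, SE 0.12, edgeR adjusted p = 0.104), and without LLC alone replicate 3 the log2 fold change was -0.36 (edgeR adjusted p = 0.00375).

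**Figure D5:**
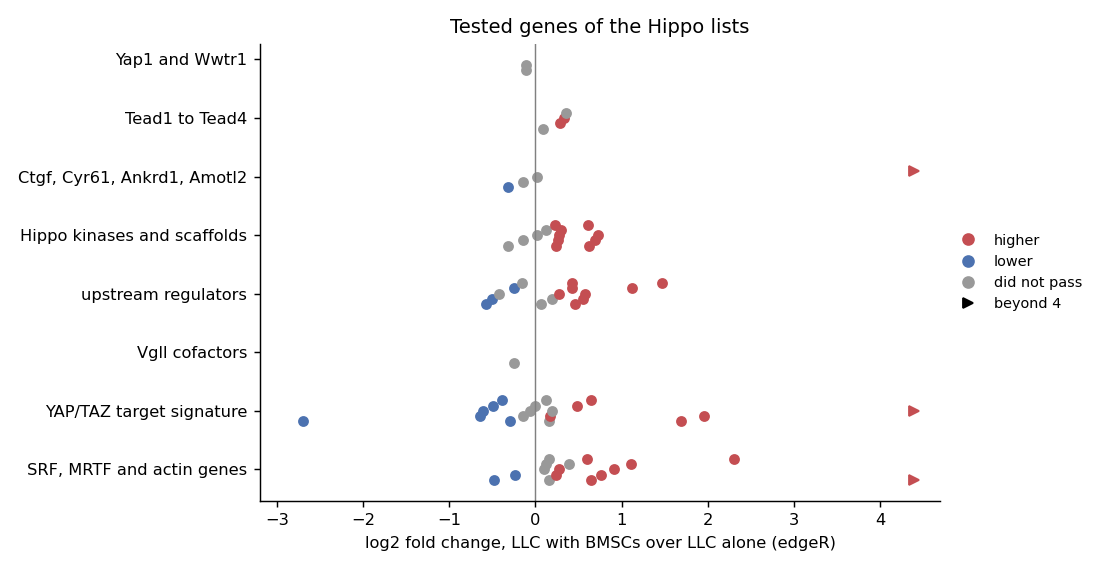
Log2 fold change of LLC with BMSCs over LLC alone (horizontal axis) for every tested gene of each list (rows), coloured by edgeR's call at an adjusted p of 0.05; the vertical position within a row only separates the points, and triangles mark values beyond 4. Of the kinases 9 are called higher, and the target signature is split, with Gadd45a at -2.69.

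By the main test, a wider signature of YAP and TAZ targets held as many genes that rose as fell. Of its 18 genes, which leave out the 4 targets above, 6 rose, 6 fell and 6 did not pass. These shares were close to the background of 31.5% higher and 31.3% lower, and the median log2 fold change was 0.06. Among the risers, Igfbp3 and Ccdc80 passed the filter on low counts only through LLC with BMSCs and so had to differ. Ccdc80, named after its values were seen, had 10, 7 and 5 counts in LLC alone and 23, 25 and 29 with BMSCs. With at least 10 counts required in every library, 4 rose and 6 fell, where 3758 and 3832 of all 12181 tested genes did. Removal of the length trend left 5 higher and 9 lower, against 35.6% and 34.2% of all tested genes. Gadd45a, a growth arrest gene that also answers to other stress pathways, was the most abundant gene of the signature and fell the most. It measured 238.97, 236.57 and 298.37 FPKM in LLC alone and 39.14, 40.47 and 41.78 with BMSCs (log2 fold change -2.69, SE 0.10, edgeR adjusted p = 9.37e-07). In the other direction, Nt5e, the ecto-enzyme CD73 and a surface marker of mesenchymal stem cells, measured 0.97, 1.01 and 1.07 FPKM against 3.95, 4.07 and 4.05 (log2 fold change 1.96, SE 0.08, edgeR adjusted p = 1.11e-06).

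Igfbp3, a secreted binder of insulin-like growth factors, resembled Ctgf. It had 0, 1 and 0 counts in LLC alone and 22, 28 and 23 with BMSCs, a ratio of 68.3 (exact 95% counting interval 11.9 to 2.74e+03), while BMSC and fibroblast markers rose as given above. Like Ctgf, it passed the filter on low counts only through LLC with BMSCs. Axl, a receptor tyrosine kinase, was at 61.74, 61.47 and 56.1 FPKM in LLC alone and at 71.48, 67.42 and 66.06 with BMSCs. Its call was at the edge of the threshold (log2 fold change 0.17, SE 0.07, edgeR adjusted p = 0.0488) and was lost with the length trend removed, at 0.00 (edgeR adjusted p = 0.998). Lats2 and Ptpn14 belong to this list and also to the kinases and to the upstream regulators, respectively, and neither passed the main test. With the length trend removed both were called lower. Lats2 moved from a log2 fold change of -0.15 to -0.37 (edgeR adjusted p = 0.000822). Ptpn14 turned from 0.19 to -0.15 (edgeR adjusted p = 0.0255).

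Genes of the actin cytoskeleton that answer to Srf and its Mrtf cofactors, which sense the same mechanical cues as YAP, changed in both directions. Of 17 genes, 16 were tested (Cnn1 was not), and 9 rose, 2 fell and 5 did not pass, beside 31.5% of all tested genes higher and 31.3% lower, at a median log2 fold change of 0.33. Tagln2, an actin-binding protein, measured 168.04, 149.37 and 184.09 FPKM in LLC alone and 384.9, 356.79 and 354.67 with BMSCs, and it rose 2.15-fold (log2 fold change 1.11, SE 0.09, edgeR adjusted p = 3.17e-05). The cytoplasmic actins Actb and Actg1, the most abundant genes of the list, rose 1.18-fold (SE 0.07 on the log2 scale, edgeR adjusted p = 0.0162) and 1.21-fold (SE 0.07 on the log2 scale, edgeR adjusted p = 0.0135). The Actb call was lost without LLC alone replicate 2 (edgeR adjusted p = 0.0528) or LLC with BMSCs replicate 1 (edgeR adjusted p = 0.0597), and the Actg1 call without LLC alone replicate 1 (edgeR adjusted p = 0.0504). With the close pairs of replicates summed, neither passed (edgeR adjusted p = 0.1 for Actb and 0.0855 for Actg1).

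The largest fold changes of this list were in smooth muscle genes at low levels. Acta2, smooth muscle actin and a marker of activated fibroblasts, had 5, 1 and 6 counts in LLC alone and 79, 76 and 80 with BMSCs (log2 fold change 4.16, SE 0.29). Like Ctgf, Acta2 passed the filter on low counts only through LLC with BMSCs, so its call supports nothing further. Myl9, the regulatory light chain of smooth muscle myosin, rose from 0.41, 0.3 and 0.41 FPKM to 1.91, 1.98 and 1.81 FPKM (log2 fold change 2.31, SE 0.17, edgeR adjusted p = 2.37e-05). Both stood beside the rise in BMSC and fibroblast markers, whose part in them was not tested.

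Over the 6 libraries, the genes whose log2 CPM was most like that of Yap1 were Exoc6b, a subunit of the exocyst (Pearson r 0.9937), Lamb2, a laminin chain (0.9930), and Rbsn, an endosomal Rab effector (0.9928), and 6 of 10593 genes had r above 0.99. These correlations describe 6 points that share libraries and depth.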

How the data were processed

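RNA of sorted cells was sequenced by poly-A selection on the BGISEQ-500 as paired reads, per the study's methods (the labels name Illumina protocols). The authors deposited estimated counts per gene, which need not be whole, with mean transcript lengths, and FPKM per gene and per transcript. The submitters' processing notes list HISAT, StringTie, Cufflinks, GATK and the build mm8 without roles; the quantifier's settings, annotation and strand setting are not given in the sources used here. Estimated counts divide shared reads among genes, and FPKM depends on the lengths used. Coordinates come from GENCODE M21 (GRCm38) and RefSeq, not from the files.

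Estimated counts were rounded and tested with edgeR 4.0.16 in R 4.3.3 (TMM, default filter, quasi-likelihood test, Benjamini-Hochberg adjustment, threshold 0.05). Standard errors are the log2 fold change over the root of the test statistic, and 95% intervals use its degrees of freedom. The length trend was a lowess fit (span 0.3) of each library, removed as an offset. Motifs were searched in the 250 bases before RefSeq starts. Groups came from the labels. Same-numbered libraries did not deviate together and were not paired. The scripts were tested on simulated data. With 33476347 to 46189113 counts per library, a floor of 3 counts covers counting error only.

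The genes and lists were chosen with earlier results of these data known. From each list besides the 10 genes, the 3 largest absolute log2 fold changes with an adjusted p under 0.05 and the 2 highest mean FPKM were named. From each marker list, the 2 highest mean FPKM were named, with genes at 0 and genes that passed the filter through a single group only. Others are said to be chosen after their values were seen. A gene that this rule names is not reported here. Alternatives were DESeq2 1.42.0, limma 3.58.1 on log2(FPKM + 1) and log2(FPKM + 0.1), other scalings and filters, a replicate block, a fold-change threshold, leaving out each library and summing close pairs. The length trend removed together with LLC alone replicate 3 left out was added after seeing the data.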

Additional observations from a re-analysis of the deposited data

How the results depend on the processing

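The calls of the 10 genes were 3 higher and 1 lower. With the length trend removed they were 3 lower, also with LLC alone replicate 3 left out as well, since Yap1 and Wwtr1 then passed; with close pairs summed 1 was higher and 0 lower, and with a log2 fold change of at least 1 also 1 and 0. The kinases higher numbered 4 with close pairs summed and 0 with the fold threshold; those lower numbered 1 under upper-quartile scaling and under limma with both pseudocounts, 2 with the length trend removed and 3 without LLC alone replicate 3 as well. The upstream regulators lower numbered 6 in both length settings, and with the fold threshold 2 were higher and 0 lower. Of the Vgll genes, 1 was higher with no filter and 1 lower in the length setting without LLC alone replicate 3. With the fold threshold the signature had 3 higher and 1 lower, the Srf list 3 and 0, and all genes 1155 and 957; with close pairs summed the Srf list had 0 lower.

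Leaving out 1 library at a time gave 2 to 3 of the 10 genes higher and 1 to 3 lower, 5 to 8 kinases higher and 0 to 2 lower, 5 to 9 upstream regulators higher and 2 to 4 lower, 0 to 0 Vgll genes higher and 0 to 1 lower, 4 to 6 signature genes higher and 5 to 8 lower, 8 to 10 Srf genes higher and 1 to 2 lower, and 3617 to 4736 and 3581 to 4539 of all genes. The 3 lower genes came without LLC alone replicate 3 and the 2 higher without LLC alone replicate 1 or 2; without LLC with BMSCs replicate 2 the Srf list had 1 lower, and without LLC alone replicate 3 the Vgll list had 1 lower. On the TPM scale the log2 ratios of group means were 0.066 for Yap1, 0.061 for Wwtr1, 0.462 for Tead2, 0.529 for Tead3, 0.265 for Tead4, 0.203 for Cyr61 and -0.140 for Amotl2, with all genes shifted by 0.156.

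Log2 fold changes that did not pass the test turned sign for Tead4 (-0.005 in the length setting without LLC alone replicate 3), Cyr61 (-0.008 under upper-quartile scaling; -0.053 to 0.067 when 1 library was left out), Ankrd1 (0.006 with the length trend removed and 0.129 without LLC alone replicate 3 as well; -0.265 to 0.040) and Map4k4 (-0.008 under upper-quartile scaling, -0.193 and -0.205 in the length settings; -0.073 to 0.072). The cause was not tested.

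With the replicate number as a block, Tead1 had a log2 fold change of 0.37 (edgeR adjusted p = 0.0307) and the Axl call was lost; same-numbered libraries correlated at 0.0762, -0.106 and 0.0572, so they share only a number. Low counts limit Ankrd1 (71 to 148 counts per library), Ctgf, Igfbp3 and Vgll3, and the length trend limits genes with long transcripts such as Tead1.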

Other observations

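Ctgf and Cyr61 belong to the CCN family of secreted matricellular proteins, and the other members were chosen after their values were seen. Nov had 7, 2 and 10 counts in LLC alone and 80, 74 and 70 with BMSCs (log2 fold change 3.45, SE 0.29). Wisp1, also known as a target of the Wnt pathway, was the most abundant member after Cyr61. It fell from 5.8, 5.53 and 5 FPKM to 4.22, 4.3 and 4.19 FPKM (log2 fold change -0.38, SE 0.07, edgeR adjusted p = 0.00171). Wisp2 fell from 0.58, 0.7 and 0.75 FPKM to 0.12, 0.11 and 0.16 FPKM (log2 fold change -2.40, SE 0.23). Wisp3 had at most 15 counts in any library (log2 fold change 1.01, SE 0.37). Nov and Wisp3 passed the filter on low counts only through LLC with BMSCs, and Wisp2 only through LLC alone. The calls of these genes therefore support nothing further. Of the 6 family members, only Cyr61 and Wisp1 had enough counts in both groups to pass the filter through either. Cyr61 at 25.57 and 26.36 FPKM did not pass the test. Ctgf, Nov, Wisp2 and Wisp3 stayed under 1 FPKM in every library.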
